A study of Mus musculus with 35 samples.

Results

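The 30 genes described here code for the proteins that bring pyruvate into the mitochondrion, turn it into acetyl-CoA and run the TCA cycle, together with the isocitrate, malate, malic and 2-hydroxyglutarate enzymes that draw on the same acids. They were chosen by name, from a list of gene symbols, out of 48709 mouse genes in the count tables, and all 30 were found there. RNA was sequenced from CTLs (effector CD8+ T cells) in 35 libraries of 7 groups, with 5 biological replicates in each. One group was taken at 0 h. The other 6 were kept for 24 h in medium of pH 7.4, pH 7 or pH 6.6, and each pH was run both in the absence of IL-2 and with IL-2 added at 200 IU/mL. Every group came from OT-I mice, whose T cells carry 1 transgenic receptor for an ovalbumin peptide, and the CTLs of every group had been primed through CD3 and CD28 and expanded in high-dose IL-2 before the experiment. The medium was a low-glucose DMEM that contained pyruvate and a stable glutamine, acidity was set by adding acid, and dead cells were removed on Ficoll before RNA extraction.

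The mitochondrial pyruvate carrier imports pyruvate, and the pyruvate dehydrogenase complex converts it to acetyl-CoA. Pyruvate dehydrogenase kinases switch that complex off by phosphorylating it, and pyruvate dehydrogenase phosphatases switch it on again. The TCA cycle then oxidizes the acetyl group and supplies reducing power and building blocks, a supply that activated T cells draw on while they grow under IL-2.

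The total count on genes ran from 16721319 to 34033340 per library, with a median of 24730020. The 8 markers of CD8 T cells were all present, and their summed level was 9719 to 12433 CPM (normalized counts, scaled to libraries of 1000000 reads with TMM factors) at pH 7.4 with IL-2, against 3416 to 4596 in acid medium (pH 6.6) with IL-2. The effector genes Gzmb and Prf1 made up that drop (6956 to 9511 CPM against 526 to 1371), while the other 6 markers, Cd8a and Cd3e among them, summed to 2597 to 2982 and 2814 to 3225 CPM. Markers of B cells, erythroid cells and myeloid cells summed to at most 3.35 CPM per type in any library, Ms4a1 and Cd22 of B cells were at 0 in every library, and Cd4 with Foxp3 summed to at most 5.50 CPM. Of the 2 NK cell markers, which some effector CD8 T cells also express, Ncr1 reached at most 0.069 CPM in any library. Their sum is therefore nearly all Klrb1c. It was 83.4 to 94.96 CPM at 0 h and 42.98 to 45.8 at pH 7.4 with IL-2, against 19.3 to 33.2 at pH 6.6 with IL-2. Reads that the counting labelled as having no feature made up 3.91% to 5.18% of everything counted at pH 7.4 with IL-2. They made up 7.34% to 8.83% after acid medium with IL-2, and 7.70% to 10.2% at pH 7.4 in the absence of IL-2. The part of these shifts in the results below was not tested, and in bulk RNA fewer cells of a type cannot be told apart from less RNA per cell. Replicate 5 at 0 h stood apart. Reads aligned to several places made up 48.3% of everything counted there, against 32.8% to 42.7% in the other libraries. Each comparison with 0 h is therefore given with and without that replicate.

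At 24 h with IL-2, most of these genes were lower in acid medium (pH 6.6) than in the controls at pH 7.4. Of the 30 members, 23 fell and 4 rose at an adjusted p under 0.05 in edgeR's quasi-likelihood test, while 40.9% of all 13819 genes tested fell and 35.4% rose. The median log2 fold change was -0.61 over the members and -0.07 over all genes tested. Me1 is among the 23 but passed the filter on low counts only through the groups where it is high, so it is read from its counts alone. Without it, 22 of 29 fell and 4 rose, with a median of -0.60, and in the other comparisons leaving it out lowered a count by at most 1. In each of the 5 replicate pairs the members' median lay below 0, from -0.66 to -0.54. The 5 libraries at pH 6.6 did not overlap the 5 at pH 7.4 for 23 of the 30 members, against 59.2% of all genes tested. Me1, with its few reads, is counted among these 23 as well. All log2 fold changes below are given ± standard error, and the adjusted p is Benjamini-Hochberg adjusted over all genes tested.

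**Figure D1:**
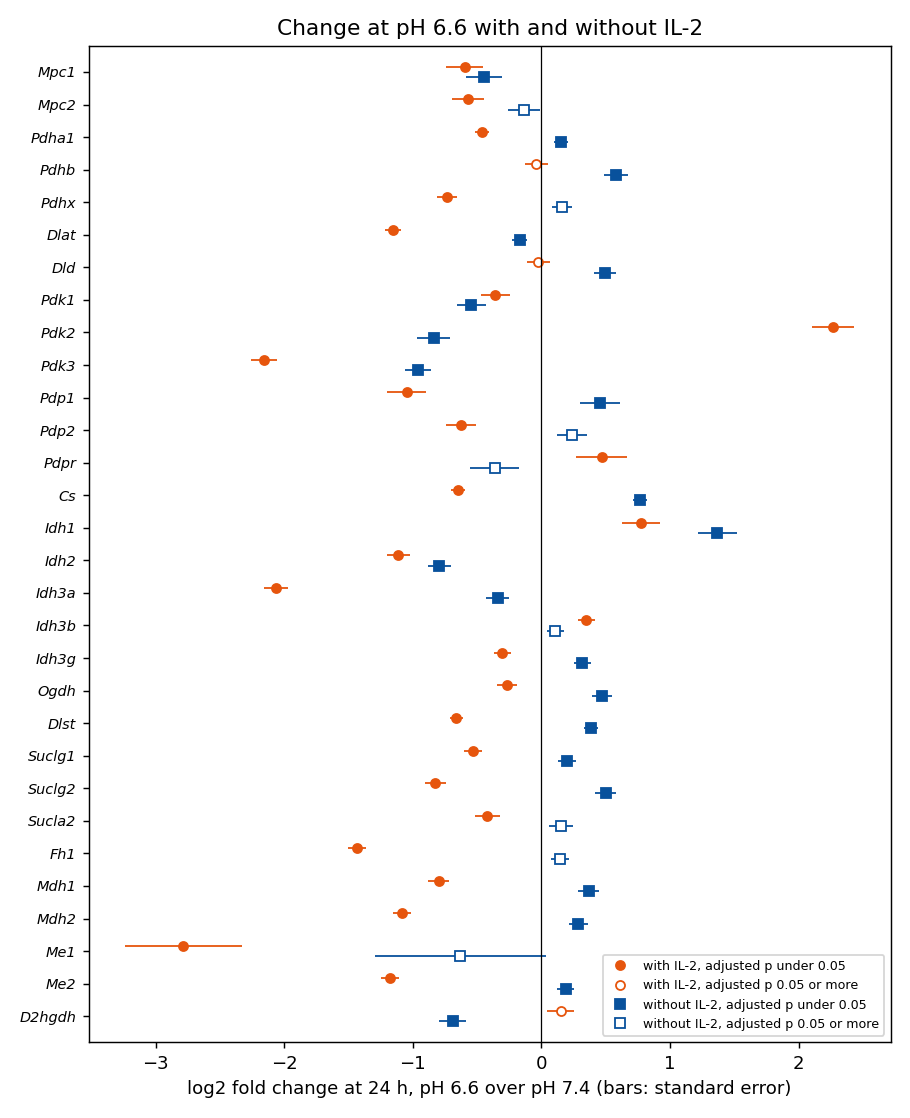
Log2 fold change (x axis) of each of the 30 genes (y axis) for pH 6.6 over pH 7.4 at 24 h, with IL-2 (circles) and without it (squares), 5 libraries per group. Bars are standard errors and filled symbols have an adjusted p under 0.05; with IL-2 the circles lie left of 0 for 23 filled genes, and the farthest to the right is Pdk2 at 2.27.

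The stretch before the start site is shown for 6 members: the kinases Pdk2 and Pdk3 and the isocitrate dehydrogenases Idh1 and Idh2, whose transcripts moved apart, and Dlat and Fh1, which were among the members that fell most. Sequences are RefSeq's on GRCm38.p6, which held a start for 27 of the 30 members, and all 6 genes lie on the minus strand. The windows are the 250 bases before the start, ended where the GENCODE gene begins. They lie at chr11:95041372-95041621 (Pdk2), chrX:93832202-93832400 (Pdk3), chr1:65186501-65186729 (Idh1), chr7:80115393-80115600 (Idh2), chr9:50659781-50660030 (Dlat) and chr1:175625636-175625885 (Fh1). Capitals mark the matches, on either strand, to an E-box, a GC box, a CCAAT box or a cAMP response element, whose letters are given after the sequences.
Pdk2: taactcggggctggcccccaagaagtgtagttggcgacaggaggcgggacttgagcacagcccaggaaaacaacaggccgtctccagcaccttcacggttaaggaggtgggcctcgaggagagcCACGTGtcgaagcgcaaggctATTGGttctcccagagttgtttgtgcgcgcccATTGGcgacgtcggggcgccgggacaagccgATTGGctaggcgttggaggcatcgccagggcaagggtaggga
Pdk3: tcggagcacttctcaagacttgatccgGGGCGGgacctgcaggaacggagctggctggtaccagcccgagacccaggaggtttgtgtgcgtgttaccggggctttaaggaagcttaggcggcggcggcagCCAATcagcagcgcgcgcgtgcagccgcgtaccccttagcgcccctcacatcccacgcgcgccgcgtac
Idh1: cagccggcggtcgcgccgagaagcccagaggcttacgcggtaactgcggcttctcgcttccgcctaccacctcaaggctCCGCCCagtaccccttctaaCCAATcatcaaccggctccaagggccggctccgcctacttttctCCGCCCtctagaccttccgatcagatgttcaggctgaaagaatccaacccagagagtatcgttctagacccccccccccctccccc
Idh2: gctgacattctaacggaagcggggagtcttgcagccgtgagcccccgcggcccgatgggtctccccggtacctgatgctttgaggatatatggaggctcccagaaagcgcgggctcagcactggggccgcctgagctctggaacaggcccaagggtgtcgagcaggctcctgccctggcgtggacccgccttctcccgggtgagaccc
Dlat: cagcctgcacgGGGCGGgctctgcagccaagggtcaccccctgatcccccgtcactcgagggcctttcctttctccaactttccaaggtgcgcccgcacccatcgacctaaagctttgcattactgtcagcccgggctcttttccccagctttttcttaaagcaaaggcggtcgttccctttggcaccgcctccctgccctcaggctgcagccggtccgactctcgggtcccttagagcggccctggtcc
Fh1: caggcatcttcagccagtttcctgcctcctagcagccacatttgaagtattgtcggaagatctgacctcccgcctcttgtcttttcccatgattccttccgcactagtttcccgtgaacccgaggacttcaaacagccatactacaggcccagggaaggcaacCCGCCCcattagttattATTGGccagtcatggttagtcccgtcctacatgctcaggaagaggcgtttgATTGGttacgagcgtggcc
The Pdk2 window held 1 E-box, 126 bases before the start, and 3 CCAAT boxes, and no GC box. The letters of an E-box, CACGTG, stood in the full 250-base windows of 3 of the 27 members (Pdk2, Pdp2 and Pdpr) and in 6.05% of 27025 promoters of the same length. Those of a GC box, GGGCGG, stood in 20 of the 27 members (74.1%) and in 32.9% of all promoters, and those of the CCAAT box, with no base beyond its name, in 15 (55.6%) and 34.5%. Those of the cAMP response element, TGACGTCA, stood in 3 members (Pdpr, Ogdh and Mdh2) and in 1.62% of all promoters. The printed stretch of Idh2 held no match, and its matches fell in the bases left off.

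Both subunits of the mitochondrial pyruvate carrier fell at pH 6.6 with IL-2. With IL-2, Mpc1 had 4.95, 3.19, 3.41, 3.23 and 2.75 at pH 7.4 and 2.83, 2.12, 2.98, 1.52 and 2.08 at pH 6.6 CPM in replicates 1 to 5. Mpc2 had 33.7, 29.7, 32.6, 33.7 and 35.4 at pH 7.4 and 20.97, 21.3, 26.3, 20.4 and 21.9 at pH 6.6. The groups overlapped for Mpc1 and did not for Mpc2. The log2 fold change was -0.60 ± 0.14 for Mpc1 (adjusted p = 0.00034) and -0.57 ± 0.12 for Mpc2 (adjusted p = 0.00013). Of the Mpc1 exon bases, 23.1% lay under a gene on the other strand and 73.7% of its windows of 50 bases were unique to it, so its counts are the less certain of the pair. The limit also touches other members. Unique windows were 71.7% for Me1, 82.2% for D2hgdh, 84.0% for Suclg2, 87.1% for Pdha1 and 88.6% for Pdhb. Of the Pdha1 exon bases, 16.1% lay under a gene on the other strand.

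In the pyruvate dehydrogenase complex, Dlat, the acetyltransferase that forms its core, fell most, while Pdhb, a subunit of its first enzyme, and Dld, the dehydrogenase it shares with other complexes, did not pass the test. Dlat had 99.8, 96.2, 97.001, 97.9 and 95.8 at pH 7.4 and 44.1, 40.9, 42.5, 45.8 and 45.8 at pH 6.6 CPM, with every library at pH 6.6 below every library at pH 7.4 (-1.15 ± 0.06, adjusted p = 1.9e-17). Pdhx, which anchors Dld to the core, had a log2 fold change of -0.73 ± 0.08 (adjusted p = 4.6e-10). Pdha1, the subunit the kinases phosphorylate, had -0.46 ± 0.06 (adjusted p = 1.1e-08). Pdhb had 94.9, 89.5, 93.6, 92.98 and 99.3 at pH 7.4 and 73.2, 93.99, 104, 94.8 and 92.2 at pH 6.6 CPM, with a log2 fold change of -0.04 and a 95% interval of -0.22 to 0.15 (adjusted p = 0.7). The interval for Dld was -0.20 to 0.15 around -0.02 (adjusted p = 0.82). Within a library the level of Dlat per kb of exon relative to that of Pdhb averaged 0.819 (range 0.763 to 0.850) at pH 7.4 and 0.384 (range 0.323 to 0.477) at pH 6.6, a ratio chosen after the values were seen.

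The 3 pyruvate dehydrogenase kinases among the members moved in different directions, and Pdk2 was the gene that rose most. A further kinase, Pdk4, is no member and did not pass the filter on low counts. Pdk2 had 1.58, 1.04, 0.862, 0.993 and 1.81 at pH 7.4 and 4.68, 6.72, 6.71, 6.09 and 5.75 at pH 6.6 CPM with IL-2, a 4.82-fold rise (2.27 ± 0.16, adjusted p = 3.8e-14). Pdk3 had 67.4, 80.5, 87.9, 76.6 and 83.1 at pH 7.4 and 19.2, 15.8, 16.4, 18.8 and 18.4 at pH 6.6, a 4.47-fold fall (-2.16 ± 0.10, adjusted p = 8.3e-19). Neither gene's libraries overlapped between the groups. Pdk1, with the highest CPM of the 3 at both pH values, had 142, 206, 218, 207 and 246 at pH 7.4 and 184, 139.6, 157, 156 and 162 at pH 6.6. Its groups overlapped (-0.36 ± 0.11, adjusted p = 0.005). The Pdk1 fall did not pass without replicate 2 or with only the groups compared (adjusted p = 0.11 and 0.085 in edgeR).

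Because the 3 kinases act on 1 target, their levels per kb were added and the share of each taken. The lengths are those of all annotated exons of a gene, 7779 bases for Pdk1, 3163 for Pdk2 and 2561 for Pdk3. In CPM, Pdk1 stood above Pdk3 at pH 7.4 with IL-2 too (means of 204 and 79.1). Which of these 2 kinases leads there therefore depends on the lengths used. Pdk3 held 53.99% ± 2.99 (SD, n = 5) of the sum in IL-2 medium of pH 7.4 and 23.6% ± 1.03 at pH 6.6. Pdk1 went from 45.3% ± 3.09 to 69.9% ± 1.65, and Pdk2 from 0.709% ± 0.278 to 6.54% ± 1.36. The sum itself was 57.5 ± 7.63 CPM per kb at pH 7.4 and 29.3 ± 2.29 at pH 6.6. Without IL-2, at pH 7.4, Pdk1 held 67.6% ± 1.46 and Pdk2 11.8% ± 1.11. Pdk2 had 17.2, 17.1, 18.3, 15.1 and 20.3 CPM at pH 7.4 without IL-2, above every library with IL-2.

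**Figure D2:**
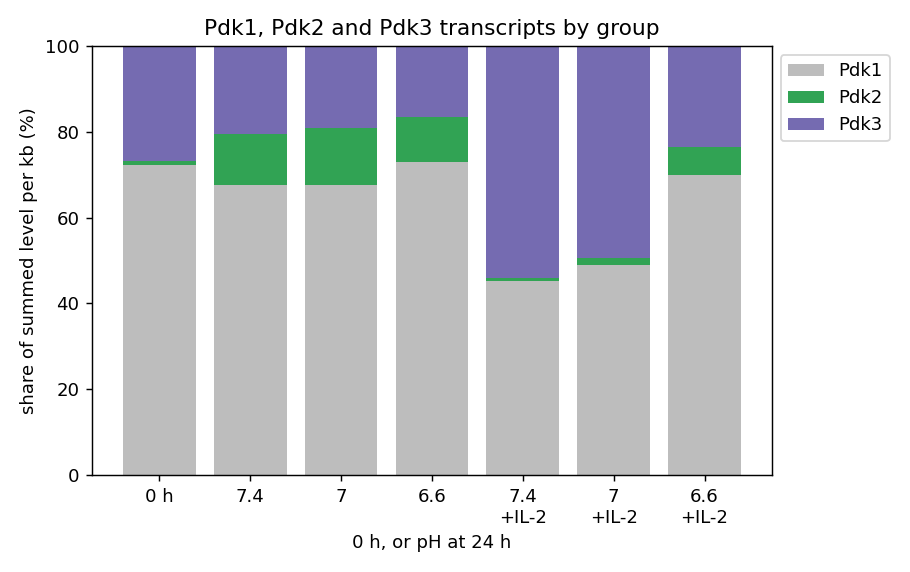
Mean share (%) of Pdk1, Pdk2 and Pdk3 in the summed level per kb of the 3 kinases, in each of the 7 groups (x axis, 0 h or the pH at 24 h; n = 5 libraries each). Pdk3 held 53.99% ± 2.99 (SD) in IL-2 medium of pH 7.4 against 23.6% ± 1.03 in that of pH 6.6, and Pdk2 held 11.8% ± 1.11 at pH 7.4 without IL-2. The shares depend on the exon lengths used.

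Both catalytic phosphatases fell and the regulatory subunit rose. Pdp1 had 31.6, 36.2, 35.7, 31.3 and 31.5 at pH 7.4 and 15.7, 13.99, 14.5, 17.7 and 18.7 at pH 6.6 CPM (-1.05 ± 0.15, adjusted p = 2e-07). Pdp2 had 27.2, 37.5, 38.3, 38.3 and 37.3 at pH 7.4 and 20.7, 24.4, 24.04, 24.3 and 21.9 at pH 6.6 (-0.63 ± 0.12, adjusted p = 1.2e-05). Neither overlapped between the groups, and replicate 1 of Pdp2 at pH 7.4 lay below the other 4. Pdpr, which holds the phosphatase in check, had 42.9, 42.6, 39.4, 27.4 and 20.7 at pH 7.4 and 48.9, 61.6, 47.4, 39.3 and 39.1 at pH 6.6, with groups that overlapped (0.47 ± 0.20, adjusted p = 0.031). The Pdpr rise did not pass without replicate 4 or without the replicate block (adjusted p = 0.083 and 0.099).

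Citrate synthase, Cs, which opens the cycle, averaged 393 ± 15.4 CPM (SD, n = 5) at pH 7.4 and 251 ± 9.64 at pH 6.6 with IL-2 (-0.64 ± 0.05, adjusted p = 1.4e-12). The 3 subunits of the NAD-linked isocitrate dehydrogenase, the next oxidative step, moved apart. Idh3a, the catalytic subunit, had 189, 161, 164, 160.0 and 173 at pH 7.4 and 48.7, 31.02, 33.5, 43.01 and 47.1 at pH 6.6 CPM, a 4.18-fold fall (-2.06 ± 0.09, adjusted p = 1.9e-19). Idh3b had 139, 132, 135, 139 and 149 at pH 7.4 and 172, 169, 165, 193 and 186 at pH 6.6 and rose by 0.35 ± 0.07 (adjusted p = 1.6e-05). Idh3g changed by -0.30 ± 0.07 (adjusted p = 0.00013). The libraries of the 2 pH values did not overlap for any of the 3 subunits. Within a library, Idh3a per kb stood at 0.822 (range 0.774 to 0.917) of Idh3b with IL-2 at pH 7.4, 0.155 (range 0.124 to 0.191) with IL-2 at pH 6.6, and 0.134 (range 0.115 to 0.144) at pH 7.4 without IL-2, again a ratio chosen after the values were seen.

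**Figure D3:**
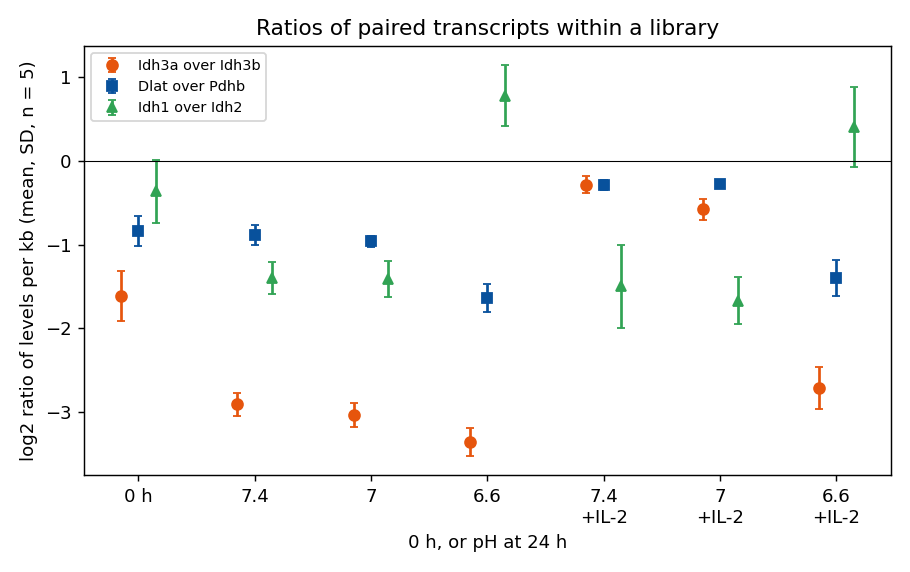
Log2 ratio of levels per kb within a library (y axis; mean and SD of 5 libraries) for Idh3a over Idh3b (circles), Dlat over Pdhb (squares) and Idh1 over Idh2 (triangles) in the 7 groups (x axis, 0 h or the pH at 24 h). With IL-2, the first averaged -0.28 at pH 7.4 and -2.71 at pH 6.6, and the third -1.50 and 0.40.

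Beyond isocitrate the genes fell by unequal amounts. Ogdh, the first enzyme of the 2-oxoglutarate dehydrogenase complex, changed by -0.27 ± 0.08 (adjusted p = 0.0033), a call lost without replicate 1 or 2 (adjusted p = 0.067 and 0.10). Its partner Dlst changed by -0.66 ± 0.05 (adjusted p = 4.4e-13). Of the succinyl-CoA ligase subunits, the shared Suclg1 changed by -0.53 ± 0.07 (adjusted p = 2.7e-08). The GTP-forming Suclg2 had 71.7, 69.1, 72.7, 66.8 and 70.9 at pH 7.4 and 31.9, 39.1, 40.5, 40.8 and 46.8 at pH 6.6 CPM (-0.83 ± 0.08, adjusted p = 6.9e-11). The ATP-forming Sucla2 had 76.05, 74.4, 79.9, 71.8 and 75.4 at pH 7.4 and 55.4, 56.6, 62.1, 53.1 and 55.1 at pH 6.6 (-0.42 ± 0.10, adjusted p = 0.00022). Both pairs of groups were free of overlap. Fh1, which hydrates fumarate to malate, had 106, 114, 114, 115 and 123 at pH 7.4 and 37.8, 39.9, 42.9, 46.2 and 44.5 at pH 6.6, a 2.71-fold fall (-1.44 ± 0.07, adjusted p = 2.6e-18). Every Fh1 library at pH 6.6 lay below every one at pH 7.4.

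The malate dehydrogenases fell together. Mdh2, the mitochondrial enzyme that closes the cycle, had 316, 358, 342, 391 and 409 at pH 7.4 and 166, 167, 145, 194 and 184 at pH 6.6 CPM (-1.08 ± 0.07, adjusted p = 4.6e-15). Mdh1, the cytosolic form, had 255, 257, 252, 258 and 287 at pH 7.4 and 145, 146, 154, 159 and 147 at pH 6.6 (-0.80 ± 0.08, adjusted p = 1.6e-10). Neither gene's groups overlapped. Of the malic enzymes, which turn malate into pyruvate, the mitochondrial Me2 had 237, 277, 285, 258 and 272 at pH 7.4 and 119, 118, 124, 112 and 115 at pH 6.6 (-1.18 ± 0.07, adjusted p = 1.5e-16), again without overlap. The cytosolic Me1 was near the limit of counting, with raw counts of 22, 11, 11, 23 and 26 at pH 7.4 and 3, 1, 2, 1 and 5 at pH 6.6. In the cells without IL-2 it had 3, 7, 0, 3 and 2 reads at pH 7.4 and 4, 2, 1, 0 and 2 at pH 6.6.

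The NADP-linked isocitrate dehydrogenases moved in opposite directions. Idh1, the cytosolic enzyme, had 6.69, 10.9, 11.7, 10.4 and 13.7 at pH 7.4 and 12.6, 21.5, 22.1, 16.4 and 18.6 at pH 6.6 CPM and rose 1.71-fold (0.78 ± 0.15, adjusted p = 1.9e-05). Idh2, the mitochondrial enzyme, had 32.2, 27.3, 25.9, 25.2 and 27.5 at pH 7.4 and 13.5, 11.4, 10.6, 14.3 and 13.6 at pH 6.6 and fell 2.16-fold (-1.11 ± 0.09, adjusted p = 6.3e-13). The Idh1 groups overlapped through replicate 1 at pH 6.6 and replicate 5 at pH 7.4, and those of Idh2 did not. Without IL-2 both changed in the same directions as with it, Idh1 by 1.37 ± 0.15 (adjusted p = 1.6e-09) and Idh2 by -0.79 ± 0.09 (adjusted p = 4.1e-09). D2hgdh, which oxidizes the 2-hydroxyglutarate that isocitrate dehydrogenases can form as a side product, had 0.15 with a 95% interval of -0.07 to 0.36 and did not pass (adjusted p = 0.2). D2hgdh did pass without replicate 1, at 0.27 (adjusted p = 0.016).

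**Figure D4:**
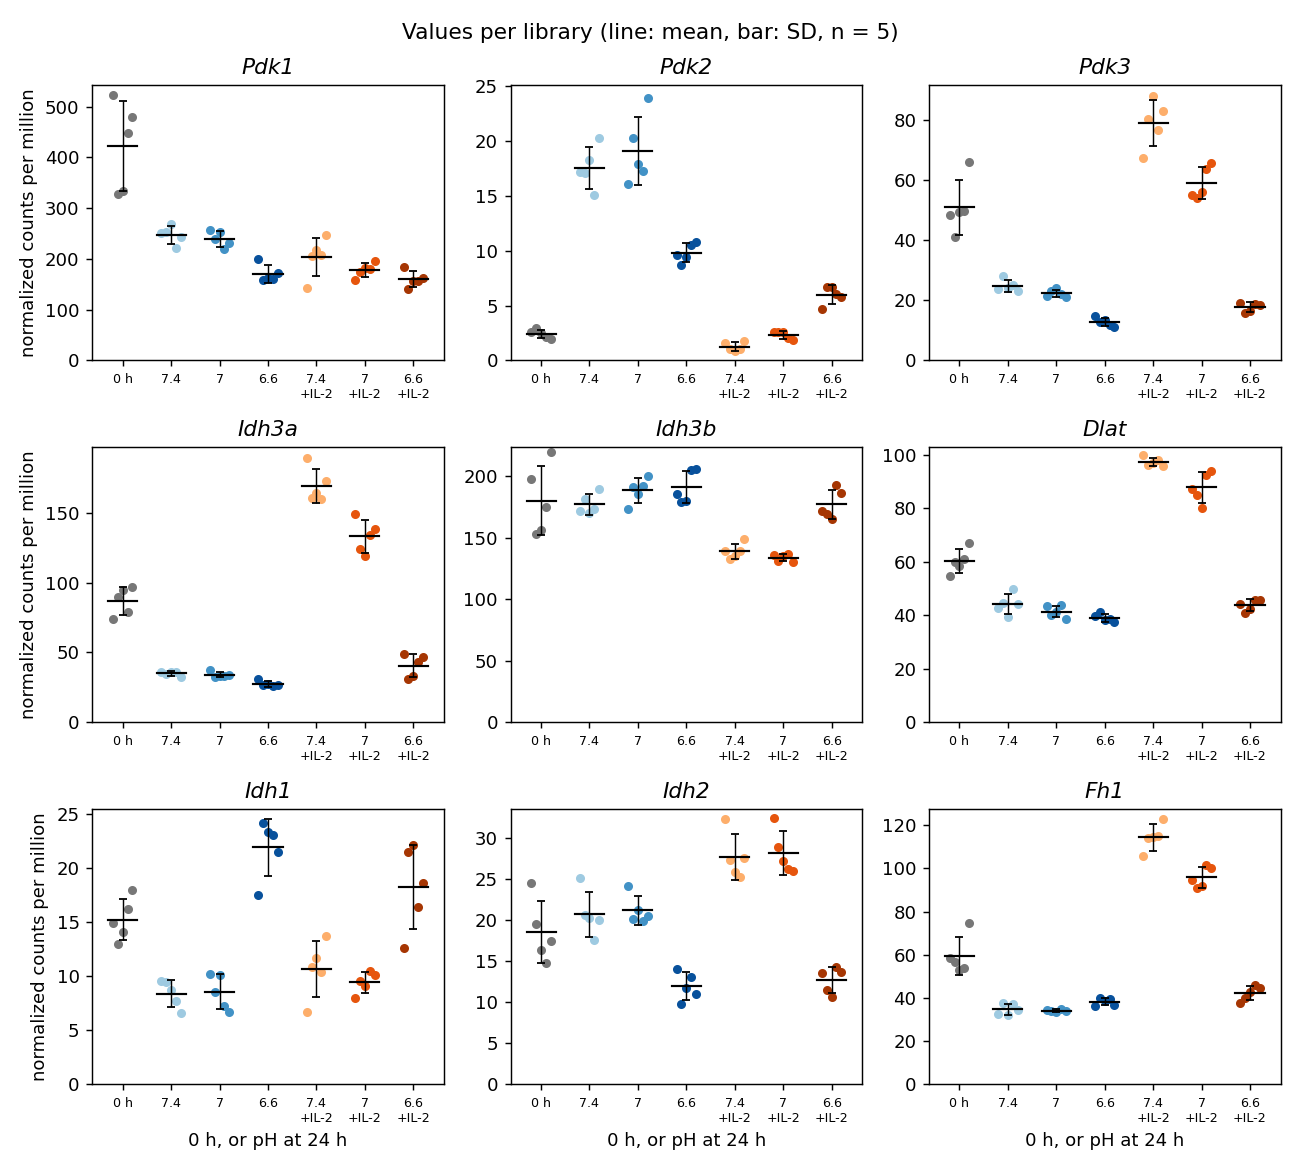
Normalized counts (CPM, y axes, from 0) of 9 genes in every library (points), by group (x axis, 0 h or the pH at 24 h), with the mean (line) and SD (bar) of 5 libraries. Idh3a, Pdk3, Fh1 and Dlat are highest at pH 7.4 with IL-2, and Pdk2 averaged 17.6 ± 1.91 (SD) at pH 7.4 without IL-2 against 1.26 ± 0.412 with it.

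For 8 pairs of enzymes that share a step, the pH 6.6 shift of one was subtracted from that of the other in each of the 5 replicate pairs (log2 CPM, mean ± SD, n = 5). The differences ran one way in 5 of 5 pairs for Pdk1 minus Pdk2 (-2.56 ± 0.89), Pdk1 minus Pdk3 (1.82 ± 0.25) and Idh1 minus Idh2 (1.90 ± 0.40). The same held for Suclg2 minus Sucla2 (-0.41 ± 0.21) and Mdh1 minus Mdh2 (0.28 ± 0.16). Each of those 5 had p = 0.0625 in an exact two-sided sign-flip permutation test, the smallest that 5 pairs allow, and 0.083 after adjustment over the 8 pairs. Pdp1 minus Pdp2 was -0.43 ± 0.33 (exact permutation p = 0.125, adjusted 0.14). Mpc1 minus Mpc2 was -0.02 ± 0.24, between -0.32 and 0.30 in single pairs (exact permutation p = 0.8125). Me1 minus Me2 is not read as a difference, since it rests on 1 to 5 reads of Me1 at pH 6.6 and went from -0.99 to -1.54 with a prior count of 0.5.

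At pH 7 with IL-2 the changes were smaller. Of the 30 members 11 fell and 1 rose, against 9.83% and 9.15% of all genes tested, and the median was -0.17. This comparison and the one at pH 6.6 share the 5 control libraries at pH 7.4. Pdk2 had 2.54, 2.60, 2.58, 2.07 and 1.86 CPM (0.91 ± 0.18, adjusted p = 0.00047), above every control library. Me2 had 175, 183, 184, 201 and 197 (-0.50 ± 0.07, adjusted p = 4.7e-06) and Pdk3 55.2, 53.99, 56.2, 63.9 and 65.8 (-0.42 ± 0.09, adjusted p = 0.0019). Each of these last libraries lay below every control library. Idh3a had 149, 124, 119, 134 and 138 (-0.35 ± 0.09, adjusted p = 0.0046). Me1 had raw counts of 12, 9, 7, 9 and 12 and is counted among the 11, and 8 of 11 alternative fits lost its call. The others that fell were Mdh2 (-0.35), Dlst (-0.32), Fh1 (-0.25), Suclg2 (-0.24), Suclg1 (-0.21), Cs (-0.19) and Idh3g (-0.19). Without replicate 3 the 12 calls became 6, and without the replicate block the calls over all genes went from 2623 to 1660.

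Without IL-2, acidity moved the genes in another way. Relative to pH 7.4, at pH 6.6 14 of the 30 rose and 8 fell, against 31.6% and 35.4% of all genes tested, with a median of 0.16. Scaled by library size alone, which shifted the median of all genes from -0.03 to -0.19, the split was 9 higher and 10 lower. With RLE scaling it was 18 and 7, and with DESeq2 18 and 8. Of the 22 calls, 16 passed in every alternative. Of the 23 members that fell with IL-2, 11 rose without it, 6 fell and 6, Me1 among them, did not pass. The share of all genes with each such pair of calls was not computed, so these counts are not read as particular to the members. The 11 were Pdha1, Pdp1, Cs, Idh3g, Ogdh, Dlst, Suclg1, Suclg2, Mdh1, Mdh2 and Me2. Cs had 144, 152, 145, 138 and 143 CPM at pH 7.4 and 219.9, 269.8, 259, 244 and 236 at pH 6.6, with no overlap (0.77 ± 0.05, adjusted p = 1.1e-13). Idh1 had 9.56, 9.46, 8.68, 7.68 and 6.55 and 17.5, 24.1, 23.4, 23.04 and 21.5, again with no overlap. Under library-size scaling, Pdha1 (0.15, adjusted p = 0.02) moved to the other side of 0, and Pdp1, Suclg1, Mdh2 and Me2 did not pass. Me2 was also lost with the looser filter or without replicate 1, 2 or 3 (adjusted p = 0.070, 0.12, 0.084 and 0.064). Pdha1 was lost with the looser filter, with only the groups compared or without replicate 2 (0.15, 0.074 and 0.20). The looser filter and leaving out replicate 1 each lost Suclg1 (0.060 and 0.067), and leaving out replicate 2 lost Pdp1 (0.059).

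Pdhb and Dld, which had not passed with IL-2, rose without it, by 0.58 ± 0.09 and 0.50 ± 0.09 (adjusted p = 1.6e-06 and 7e-06). The members that fell both ways were Mpc1, Dlat, Pdk1, Pdk3, Idh2 and Idh3a. Dlat changed by only -0.17 ± 0.06 here (adjusted p = 0.016), a call lost without replicate 4 or replicate 5 (adjusted p = 0.14 and 0.050). The Dlat call was also lost with RLE scaling, the looser filter and only the groups compared (adjusted p = 0.066, 0.075 and 0.064). Pdk3 had 23.9, 27.997, 23.9, 25.03 and 23.2 CPM at pH 7.4 and 14.6, 12.8, 13.3, 11.8 and 11.1 at pH 6.6, with no overlap (-0.96 ± 0.10, adjusted p = 7.7e-10). Pdk2 fell, from 17.2, 17.1, 18.3, 15.1 and 20.3 to 9.64, 8.69, 9.45, 10.5 and 10.8 (-0.84 ± 0.13, adjusted p = 1e-06). D2hgdh changed by -0.69 ± 0.10 (adjusted p = 6.8e-07). Between pH 7 and pH 7.4 without IL-2, edgeR called 0 of the 30 members and 1.68% of all genes tested, or 232 genes, which became 56 without the replicate block and 35 without replicate 2. DESeq2 also called 0 members. In edgeR, 1 member had an unadjusted p under 0.05, as did 1124 of all 13819 genes tested.

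Whether the pH 6.6 effect itself differed between the 2 IL-2 states was tested as an interaction. The effect was lower with IL-2 for 24 members and higher for 4, against 32.8% and 34.3% of all genes tested, with a median of -0.73. The highest was Pdk2, at 3.10 ± 0.21 (adjusted p = 1.7e-14). Me1 aside, the lowest was Idh3a, at -1.72 ± 0.13 (adjusted p = 1.3e-13). Me1 is counted among the 24 on a few reads without IL-2, and 5 of 10 alternative fits lost its call. Mpc1 and Pdk1 did not pass, with 95% intervals of -0.55 to 0.26 and -0.14 to 0.51. Library-size scaling moved the median of all genes to 0.27 and left 20 lower and 5 higher members.

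With IL-2 most of the genes were higher than without it at pH 7.4 and pH 7, and few passed the test at pH 6.6. At pH 7.4, 23 members were higher with IL-2 and 5 lower, against 39.3% and 41.1% of all genes tested, with a median of 0.68. At pH 7 the counts were also 23 and 5, against 37.6% and 39.5%. At pH 6.6 they were 2 and 1, against 13.2% and 10.6%. At pH 7.4 the rises, Me1 aside, ran from 0.38 (Dld) to 2.27 (Idh3a). Idh3a rose by 2.27 ± 0.09 (adjusted p = 5.4e-21), from 36.2, 34.5, 36.2, 36.01 and 32.3 CPM to the values above. Pdp1 rose by 1.91 ± 0.16 and Fh1 by 1.72 ± 0.07 (adjusted p = 6.1e-13 and 1.1e-20). Pdk2 was 14.1-fold lower with IL-2 (-3.81 ± 0.16, adjusted p = 1.2e-20). The other 4 lower genes were Pdpr (-1.001), D2hgdh (-0.98), Idh3b (-0.35) and Pdk1 (-0.28), of which Pdk1 did not pass without replicate 3 (adjusted p = 0.075).

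At pH 6.6 the 3 genes that passed had the sign they had at pH 7.4. They were Idh3a (0.54 ± 0.09, adjusted p = 2.7e-05), Pdk3 (0.47 ± 0.10, adjusted p = 0.00088) and Pdk2 (-0.71 ± 0.14, adjusted p = 0.00019). Idh3a had 31.3, 26.4, 27.7, 26.3 and 26.9 CPM at pH 6.6 without IL-2, and 1 library with IL-2 (replicate 2) lay below the highest of them. The count at pH 6.6 depended on the fit, from 3 to 9 members. Dlat (0.16, adjusted p = 0.053) and Pdp1 (0.41, adjusted p = 0.054) were just outside the threshold.

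**Figure D5:**
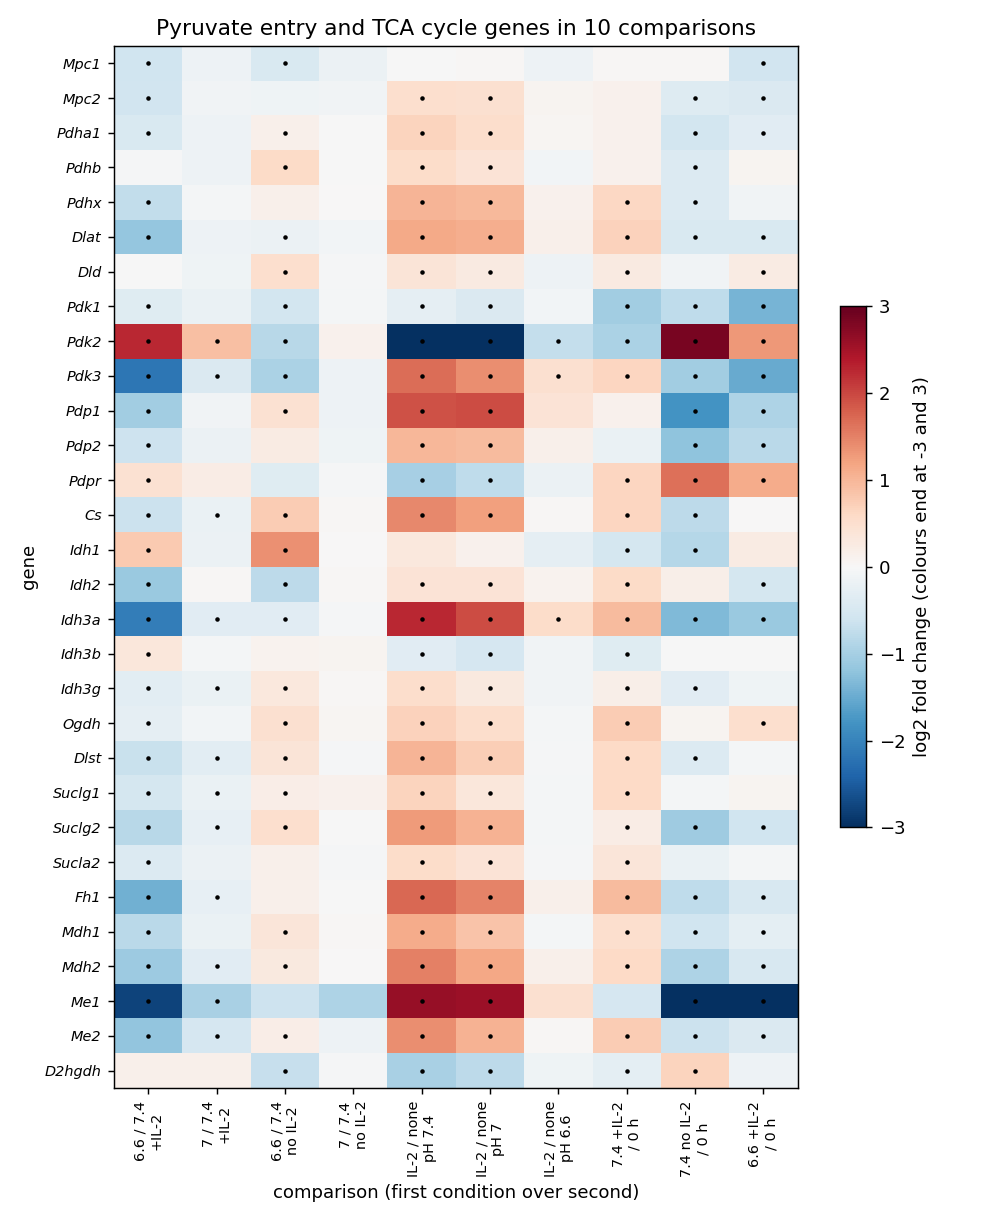
Log2 fold change (colour, ending at -3 and 3) of the 30 genes (rows) in 10 comparisons (columns, first condition over second), with a dot where the adjusted p is under 0.05. The column for pH 7 over pH 7.4 without IL-2 holds 0 dots, and that for IL-2 over none at pH 6.6 holds 3.

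Against the cells at 0 h, the members were higher after 24 h at pH 7.4 with IL-2 (18 higher and 5 lower, with 59.9% of all genes tested called in either direction, 4009 genes higher and 4273 lower). They were lower without IL-2 (3 and 20, against 36.9% and 38.3%) and at pH 6.6 with IL-2 (4 and 16, against 30.5% and 38.0%). These comparisons share the 0 h libraries. Without 0 h replicate 5 the counts were 21 and 5, 3 and 19, and 6 and 16. Pdk1 was highest at 0 h, with 523, 327, 333, 447 and 479.9 CPM, and lower in all 3 (-1.04 ± 0.11, -0.76 ± 0.11 and -1.40 ± 0.11, adjusted p at most 3.3e-07). Pdpr was lowest there, with 14.3, 37.6, 29.6, 23.3 and 7.42. Idh3a had 73.8, 89.7, 95.1, 79.1 and 96.6 and stood between the 2 IL-2 states, 0.96 ± 0.09 with IL-2 and -1.31 ± 0.09 without it at pH 7.4. Pdk2 had 2.54, 2.97, 2.49, 2.16 and 1.95 and was 7.22-fold higher at 24 h without IL-2 (adjusted p = 7.9e-18). Of the 30 members, 18 had their highest group mean with IL-2 at pH 7.4, and 0 had it with IL-2 at pH 6.6. The share over all genes tested was not computed, so these counts are not read as particular to the members.

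Per kb of exon, the order of levels also shifted. At pH 7.4 with IL-2 the highest were Mdh2 (102 ± 10.5 CPM per kb, SD, n = 5), Mdh1 (102 ± 5.53) and Cs (68.01 ± 2.67), with the malate dehydrogenases within each other's spread. At pH 6.6 with IL-2 they were Mdh1 (58.5 ± 2.37), Idh3b (51.7 ± 3.41) and Mdh2 (48.1 ± 5.29), the last 2 within each other's spread. The lowest in both were Me1 (0.200 ± 0.0884 and 0.0284 ± 0.0201), Mpc1 (1.68 ± 0.404 and 1.11 ± 0.287) and Pdk2 (0.397 ± 0.130 and 1.89 ± 0.266), and between Mpc1 and Pdk2 the order reversed.

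A list of 22 further genes of these routes, not members, was read from the same fits, and 20 of them passed the filter on low counts (Me3 and Pdk4 did not). At pH 6.6 with IL-2, 0 rose and 16 fell, against 35.4% and 40.9% of all genes tested, with a median of -0.94. The succinate dehydrogenase subunits, which oxidize succinate in the cycle, had -0.27 ± 0.05 (Sdha), -1.13 ± 0.08 (Sdhb), -0.66 ± 0.07 (Sdhc) and -0.11 ± 0.08 (Sdhd, not passing). Ldha, which diverts pyruvate to lactate, changed by -2.48 ± 0.13. Pcx, which carboxylates pyruvate to oxaloacetate, changed by -2.56 ± 0.18. At pH 7 with IL-2, 0 rose and 6 fell (all genes 9.15% and 9.83%). Without IL-2, at pH 6.6, 6 rose and 6 fell, each near the share over all genes (31.6% and 35.4%). With IL-2 relative to without, 16 were higher and 0 lower at pH 7.4 (all genes 39.3% and 41.1%), and 4 and 1 at pH 6.6 (13.2% and 10.6%).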

How the data were processed

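RNA of OT-I CTLs was measured in 35 libraries. Libraries were stranded and made from polyadenylated RNA, reads were single, and the authors deposited 1 table of raw counts of reads per gene for each library, with no normalization. The submitters' processing notes name cutadapt 1.8, STAR 2.5.2b, HTSeq 0.6.1 and the build GRCm38. The annotation release, the strand setting and the read length are not given in the sources used here. The closing lines of each table, which name no gene, were left out of library sizes and tests. Reads labelled as having no feature were 2.58% to 11.1% of all that was counted. Reads on several genes were 0.871% to 0.997%, and reads aligned to several places 32.8% to 48.3%. Genes with near-identical copies may therefore be undercounted. Unaligned reads were 0% of these counts in every library. Whether a read aligned to several places was counted once is not stated.

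Identifiers were matched to symbols for 48349 of 48709 genes. Lengths and overlaps are those of GENCODE M21, and uniqueness was taken over 50-base windows. With edgeR 4.0.16 in R 4.3.3, 13819 genes passed a minimum count of 10. The fit scaled libraries with TMM factors and took in all 35 libraries with terms for group and replicate number. The block rests on the numbers in the labels: same-numbered libraries deviated together (correlation over 0.1 in 5 of 5 pairs) in 7 of the 10 pairs of groups compared, and in 95 of all 105 pairs. Quasi-likelihood p-values were Benjamini-Hochberg adjusted over all genes tested. The fit for pH 6.6 against pH 7.4 with IL-2 was run on simulated data in which 200 of 13423 genes were changed. Of its 178 calls, 171 were changed genes. In the real data 10539 of 13819 genes were called there, so the simulation does not test the scaling where most genes move. No 2 libraries of a group agreed within sampling noise. The labels call the libraries biological replicates but give no animal, so p-values measure the spread between them.

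The 30 genes, the lists and the tests were chosen with earlier results of these data known. Values in every library are given for the members that rose or fell most at pH 6.6 with IL-2, for the enzyme pairs, for the 3 with the widest interaction and for the 5 with the largest change at pH 7, and a value for every other member. Values of Dlat, Pdhb and Cs in every library, and the ratios between members, were added after the values were seen. Alternatives were other scalings (RLE, library size alone), looser and stricter filters, DESeq2 1.42.0, only the groups compared, no replicate block, each replicate number left out and, added after seeing the data, 0 h without replicate 5.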

Additional observations from a re-analysis of the deposited data

Results flagged for a closer look

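In 14 of 210 sets of 5 libraries (30 genes by 7 groups), 1 library lay apart from the others by more than Dixon's test allows (a gap over 0.71 of the range). Chance alone gives about 1 in 20 such sets. At 0 h, 4 of them were replicate 5, the library with the most reads aligned to several places. There Mpc2 had 47.1 CPM against 22.9 to 28.1, Pdhb had 115 CPM against 75.8 to 84.6, Sucla2 had 81.8 CPM against 49.3 to 58.5, Fh1 had 74.9 CPM against 52.8 to 58.6. Mpc1 in replicate 1 at pH 7 without IL-2 had 4.41 CPM against 2.46 to 3.02. Mpc2 in replicate 3 at pH 6.6 with IL-2 had 26.3 CPM against 20.4 to 21.9. Pdp2 in replicate 1 at pH 7.4 with IL-2 had 27.2 CPM against 37.3 to 38.3. Pdpr in replicate 3 at pH 7.4 without IL-2 had 73.6 CPM against 64.1 to 65.97. Idh3a in replicate 1 at pH 6.6 without IL-2 had 31.3 CPM against 26.3 to 27.7. Idh3g in replicate 5 at pH 7.4 with IL-2 had 126 CPM against 109 to 114. Ogdh in replicate 1 at pH 6.6 without IL-2 had 196 CPM against 218 to 221. Dlst in replicate 4 at pH 7.4 without IL-2 had 77.4 CPM against 86.9 to 89.4. Suclg2 in replicate 1 at pH 6.6 without IL-2 had 32.6 CPM against 42.6 to 43.8. Mdh1 in replicate 5 at pH 7.4 with IL-2 had 287 CPM against 252 to 258.

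The effect of pH 6.6 differed between cultures with and without IL-2 for 28 of the 30 genes in edgeR's interaction test, which called 34.3% of all genes higher with IL-2 and 32.8% lower. The log2 difference, with IL-2 minus without, was above 0 for Pdk2 (3.10), Pdpr (0.83), Idh3b (0.24), D2hgdh (0.84). It was below 0 for Me1 (-2.15), Idh3a (-1.72), Fh1 (-1.58), Pdp1 (-1.50), Cs (-1.41), Mdh2 (-1.37), Me2 (-1.37), Suclg2 (-1.33), Pdk3 (-1.20), Mdh1 (-1.17), Dlst (-1.05), Dlat (-0.98), Pdhx (-0.89), Pdp2 (-0.86), Ogdh (-0.74), Suclg1 (-0.73), Idh3g (-0.62), Pdhb (-0.62), Pdha1 (-0.61), Idh1 (-0.59), Sucla2 (-0.57), Dld (-0.52), Mpc2 (-0.43), Idh2 (-0.32). The calls for Mpc2, Idh1, Idh2, Idh3b, Me1 and Pdpr each failed in at least 1 fit that left out a replicate number. Me1 is counted among the 28, at -2.15, but passed the filter on low counts only through the groups where it is high. That value rests on a few reads without IL-2 and is not read as a difference. Without Me1, 4 of 29 genes were higher and 23 lower. The Me1 call was also lost without the replicate block (adjusted p = 0.051) and with library size alone (adjusted p = 0.056). The part of the markers and of the reads with no feature that moved with these groups was not tested.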

How the results depend on the processing

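Each test was repeated under 12 alternatives. For single genes, 3772 of the repeated values had the same side of the threshold as reported, 110 no longer passed, 59 newly passed and 1 changed sign: Pdha1 at pH 6.6 without IL-2, at -0.00055 with scaling by library size alone. Values that passed in neither fit were taken as having no direction. At pH 6.6 against pH 7.4 with IL-2, 24 of the 27 calls passed in every alternative run for them, Me1 in the 10 that kept it, and 6 of the 12 at pH 7 did. At pH 6.6 without IL-2, 16 of the 22 calls did. The 12 calls at pH 7 with IL-2 became 7 with library size alone, 7 with the looser filter and 6 to 10 when a replicate number was left out, 6 without replicate 3. The 3 calls for IL-2 at pH 6.6 became 5 with RLE, 5 with the stricter filter, 5 with DESeq2, 7 with library size alone, 9 with only the groups compared and 3 to 5 with a replicate number left out, 5 without replicate 1 or replicate 2. The cause was not tested. The difference in shift of Me1 minus Me2 was -1.54 with a prior count of 0.5. Without the replicate block the counts of calls were 26 (pH 6.6 with IL-2) and 9 (pH 7 with IL-2), against 27 and 12 with it, and no count of members moved by over 1.5 times. Over all genes it did at pH 7, from 2623 to 1660 with IL-2 and from 232 to 56 without it, where 35 to 332 were called with a replicate number left out. With only the groups compared, 4388, 942 and 5369 genes were called at pH 7 with IL-2, at pH 7 without it and for IL-2 at pH 6.6, the last against 3278. Depth limits Me1 most, with 0 to 34 reads in a library.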
